A study of Mus musculus with 6 samples.

Results

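The genes described here encode parts of the machinery that marks proteins with ubiquitin and degrades them: a cullin, an elongin, an enzyme of cullin neddylation, subunits of the COP9 signalosome, proteasome components and a HECT-type ubiquitin ligase. They were taken by symbol from a deposited comparison of mouse retinas on chromosome 1. All 9 symbols sought (Cul3, Tceb1, Cops5, Cops7b, Cops8, Ube2f, Psmd1, Uchl5 and Trip12) were found, each in a single row, among 1140 complete rows, and the authors had tested all 9 along with 637 others. The tested retinas were T2Isl1/+, heterozygous for a knock-in in which Isl1 is expressed from Tbr2 (the Eomes gene). The controls were T2fx/+, heterozygous for a Tbr2 allele written as Tbr2fx or Tbr2-f in the labels, and the submitters call them wild type. Each group comprised 3 libraries of C57BL/6 retinas at E15.5 (an embryonic stage), each library a pool of 8 retinas, and no other treatment is named in the labels. Whole retinas were used, so a value averages over all retinal cells, those in which the Tbr2 locus is silent included. In such bulk RNA, fewer cells of a type and less RNA per cell cannot be told apart. The comparison asks which genes differ in level when Isl1 is expressed from the Tbr2 locus.

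Cullins are scaffolds that bring a ubiquitin-conjugating enzyme to a substrate held by a receptor. A cullin ligase is switched on when the ubiquitin-like protein NEDD8 is attached to the cullin, and the COP9 signalosome switches it off by removing NEDD8. Substrates that carry ubiquitin chains are degraded by the proteasome, and CUL3 in particular works through receptors with a BTB domain. These complexes are found in dividing and in differentiated cells alike, the developing retina included.

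For 2 of the 9 genes, Cul3 and Ube2f, sequence from before the gene is shown, as a view of the promoters of a cullin gene and a neddylation enzyme gene. They were the 2 genes whose 150 bases before the RefSeq start held no exon in GENCODE. The deposited intervals start earlier than RefSeq, by 76 bases for Cul3 and 87 bases for Ube2f, so only the bases outside both are printed, 74 for Cul3 and 63 for Ube2f. The sequences are RefSeq's for build GRCm38.p6, written 5′ to 3′ on the gene's strand. Capitals mark matches, on either strand, to a GC box (GGGCGG) in Cul3 and to a CCAAT box (CCAAT) in Ube2f. The Cul3 stretch is chr1:80340767-80340840 on the minus strand and the Ube2f stretch is chr1:91250154-91250216 on the plus strand.
Cul3: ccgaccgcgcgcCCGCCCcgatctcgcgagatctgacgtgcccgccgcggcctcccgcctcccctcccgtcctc
Ube2f: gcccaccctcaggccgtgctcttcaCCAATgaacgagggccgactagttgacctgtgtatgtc

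The 2 promoters differ in composition. In the 250 bases before the RefSeq start, a window that runs into the deposited interval of both genes, Cul3 had 73.2% G and C and 23 CpG dinucleotides, and Ube2f had 52.8% G and C and 14 CpG dinucleotides, against medians of 52.4% and 6 over all 32841 mouse promoters in the reference table. RefSeq promoters were matched for 7 of the 9 genes, and Tceb1 and Cops5 were the others. All 7 had more CpG dinucleotides than the median promoter, with Trip12 at 32, Uchl5 at 30, Cops8 at 26, Psmd1 at 12 and Cops7b at 7. For these 5 genes the 150 bases nearest the start overlap annotated exons of other transcripts of the same gene, so their composition and matches are not those of sequence before the gene alone. A GC box was found in 3 of the 7 (Cul3, Cops8 and Uchl5) and in 32.7% of all promoters. The CCAAT box was found in 1, Ube2f, and in 33.9% of all promoters. The ETS core CCGGAAG was found in Cops8 and Ube2f and in 6.91% of all promoters. The letters TGACNNNGC, a form of the antioxidant response element, were found in Trip12 and Uchl5 and in 10.2% of all promoters. Both strands were searched for each motif, with overlaps between motifs allowed, and a match describes letters only.

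The 9 genes had nearly the same level in both genotypes. None of them passed the authors' test at a q-value (adjusted p) under 0.05, against 1.55% of the 646 tested rows. At an unadjusted p under 0.05 there was 1 of 9, Tceb1, against 3.72% of tested rows. In the authors' deposited table all 9 had a q-value of 0.9997, which 629 of the 646 tested rows shared. The T2Isl1 value differed from the T2fx value by less than 10% for 8 of the 9 genes and by 19.9% for Tceb1. The median log2 fold change of the 9 genes, T2Isl1 over T2fx, was 0.05 in the authors' deposited table and that of all tested rows was 0.01. Values were above T2fx for 6 genes and below it for 3, a split that became 4 above and 5 below when both groups were rescaled to the same total without crystallin genes. Of all tested rows 54.6% were above T2fx as deposited and 32.0% after that rescaling. The table holds 1 value per gene and group, so no spread between libraries can be given for any gene.

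**Figure D1:**
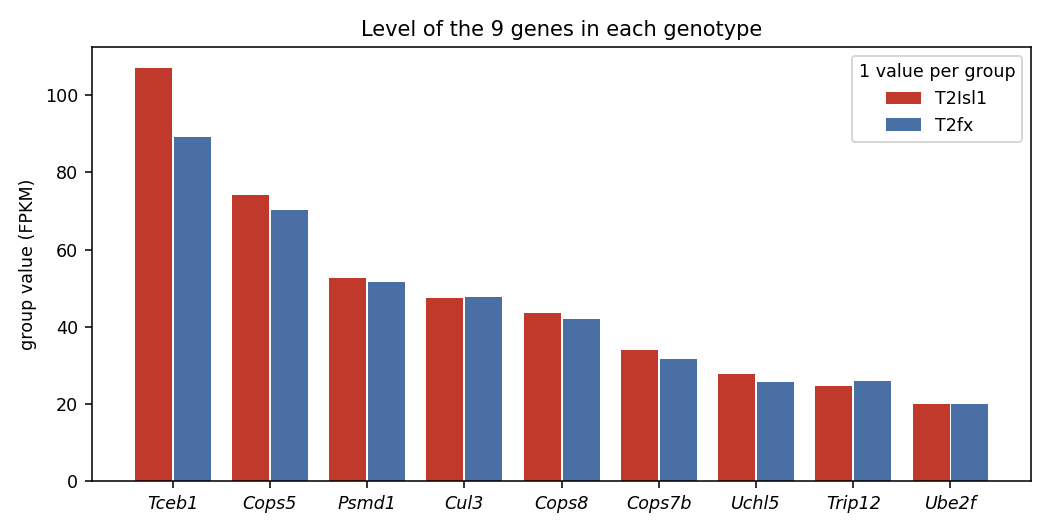
Bars give the group value of each gene in FPKM (linear axis from 0), T2Isl1 on the left of each pair and T2fx on the right, genes ordered by their T2Isl1 value. Each bar is 1 value for 3 libraries, so it has no error bar. The pairs are close in height except for Tceb1, with 107 FPKM in T2Isl1 and 89.2 FPKM in T2fx.

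All 9 genes were expressed above the middle of the tested rows. Levels are in FPKM, a fragment count corrected for transcript length and for the mapped fragments of the library, which permits comparison between genes. The median level of the 9 genes was 43.5 FPKM in T2Isl1 and 42.1 FPKM in T2fx retinas, and that of all tested rows was 10.4 FPKM in T2Isl1 and 10.7 FPKM in T2fx retinas, from the authors' deposited table. The highest of the 9 was 5.38 times the lowest in T2Isl1 and 4.44 times the lowest in T2fx. All 9 are annotated as protein-coding. The order from high to low in T2Isl1 was Tceb1, Cops5, Psmd1, Cul3, Cops8, Cops7b, Uchl5, Trip12 and Ube2f. In T2fx the order was the same except that Trip12 stood above Uchl5. Since no spread is known, it cannot be said which neighbours in this order differ.

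Cul3 encodes the scaffold of the CUL3 ubiquitin ligases. It lies on chromosome 1 from 80264147 to 80340766 on the minus strand (mm10, as for all positions below). It had 47.4 FPKM in T2Isl1 and 47.7 FPKM in T2fx retinas in the authors' deposited table. The 2 values differed by 0.55%, the smallest difference among the 9 genes (log2 fold change -0.0080, unadjusted p = 0.953, the authors' deposited table). Outside the 9 genes, the tested genes closest to Cul3 over the 2 group values on a log2 scale were Copa, Pex19 and Dars. Copa had 46.6 FPKM in T2Isl1 and 49.2 FPKM in T2fx retinas in the authors' deposited table. Pex19 had 48.2 FPKM in T2Isl1 and 46.1 FPKM in T2fx, and Dars had 48.2 FPKM in T2Isl1 and 50.0 FPKM in T2fx, in the authors' deposited table. Their distances to Cul3 were 0.05, 0.06 and 0.07, measured over only 2 values per gene.

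Tceb1 encodes elongin C, now called Eloc, an adaptor that links substrate receptors to CUL2 and CUL5. Its row spans 16641717 to 16657166 on the minus strand. It was the most abundant of the 9 genes, with 107 FPKM in T2Isl1 and 89.2 FPKM in T2fx retinas in the authors' deposited table, which placed it at rank 26 of the 646 tested rows in T2Isl1 and at rank 30 in T2fx. The T2Isl1 value was 1.20 times the T2fx value, a log2 fold change of 0.26 (unadjusted p = 0.042, q-value 0.9997, the authors' deposited table). Its fold change ranked 32 of 646 from the highest. A fold change above 0 with an unadjusted p under 0.05 was found for 1.08% of tested rows. After adjustment the difference did not pass. The ratio of Tceb1 to Cul3 was 2.26 in T2Isl1 and 1.87 in T2fx. By contrast with Cul3, whose 2 values were almost equal, Tceb1 had the widest gap of the 9.

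Ube2f encodes a NEDD8-conjugating enzyme, known for neddylation of CUL5. It spans 91250217 to 91287001 on the plus strand and had the lowest level of the 9 genes. The authors' deposited table gives 19.9 FPKM in T2Isl1 and 20.1 FPKM in T2fx retinas (log2 fold change -0.01, unadjusted p = 0.925). Cul3 was 2.38 times as abundant as Ube2f in T2Isl1 and 2.37 times in T2fx, so the ratio of these transcripts hardly differed. A search of annotated mouse transcripts found 1 near copy of Ube2f, the processed pseudogene Gm7099, with 97.7% identity over 558 bases, and reads of the gene and the pseudogene may have been divided between them. No such copy, at 95% identity or more over at least 200 bases, was found outside their own loci for the other 8 genes.

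The 3 COP9 signalosome subunits among the 9 genes each had a T2Isl1 value slightly above the T2fx value as deposited. So had 54.6% of all tested rows and 70.4% of the 169 other rows at the level of the 9 genes. None of the 3 passed the test, against 1.55% of all tested rows. Cops5 encodes the catalytic subunit, the metalloprotease that takes NEDD8 off cullins. It spans 10024600 to 10038159 on the minus strand and had 74.2 FPKM in T2Isl1 and 70.3 FPKM in T2fx retinas (log2 fold change 0.08, unadjusted p = 0.494, the authors' deposited table). Cops8, which encodes a small subunit, spans 90603425 to 90613341 on the plus strand and had 43.5 FPKM in T2Isl1 and 42.1 FPKM in T2fx retinas (log2 fold change 0.05, unadjusted p = 0.676, the authors' deposited table). The Cops8 value was below T2fx, at a log2 fold change of -0.026, when the groups were rescaled without crystallins. That rescaling left Cops5 at 0.0049, and centring on the median of genes of like transcript length put Cops5 at -0.015.

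Cops7b encodes 1 of the alternative forms of subunit 7, the other being Cops7a. Its row spans 86543015 to 86606500, an interval also given to Pde6d on the opposite strand and so not the extent of Cops7b alone. Cops7b lies on the plus strand and had 34.0 FPKM in T2Isl1 and 31.7 FPKM in T2fx retinas (log2 fold change 0.10, unadjusted p = 0.496, the authors' deposited table). The proportions of the 3 subunit transcripts were alike in both genotypes. Cops5 was 1.70 times as abundant as Cops8 in T2Isl1 and 1.67 times in T2fx. Cops5 was 2.18 times as abundant as Cops7b in T2Isl1 and 2.22 times in T2fx. The catalytic subunit thus had the highest transcript level of these 3 in each genotype. Subunits were sought by symbols starting Cops and by Gps1, which left out Myeov2, an older symbol of the subunit gene Cops9. Myeov2 had a mean of 141 FPKM over both groups, above the mean of 72.2 FPKM for Cops5. Its log2 fold change was 0.12 (q-value 0.9997, the authors' deposited table).

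The 2 proteasome genes belong to its regulatory particle. Psmd1 encodes Rpn2, a large scaffold subunit of the base, and spans 86064619 to 86139295 on the plus strand. It had 52.6 FPKM in T2Isl1 and 51.7 FPKM in T2fx retinas (log2 fold change 0.03, unadjusted p = 0.815, the authors' deposited table). Uchl5 encodes a deubiquitinase that binds the proteasome, and spans 143777278 to 143807466 on the plus strand. It had 27.8 FPKM in T2Isl1 and 25.8 FPKM in T2fx retinas (log2 fold change 0.11, unadjusted p = 0.413, the authors' deposited table). Psmd1 was 1.89 times as abundant as Uchl5 in T2Isl1 and 2.00 times in T2fx, so the associated enzyme's transcript was at about the same distance below the subunit's in both.

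Trip12 encodes a HECT-type ubiquitin ligase, which takes ubiquitin onto itself before passing it to a substrate and needs no cullin. Trip12 lies on the minus strand, and its row spans 84721051 to 84900486, 179 kb, the longest interval of the 9. Fbxo36 on the opposite strand was given the same interval, so it is not the extent of Trip12 alone. Trip12 had 24.7 FPKM in T2Isl1 and 26.0 FPKM in T2fx retinas in the authors' deposited table. The T2Isl1 value was 5.24% below the T2fx value (log2 fold change -0.08, unadjusted p = 0.493, the authors' deposited table). This was the lowest fold change of the 9 genes and did not pass the test.

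**Figure D2:**
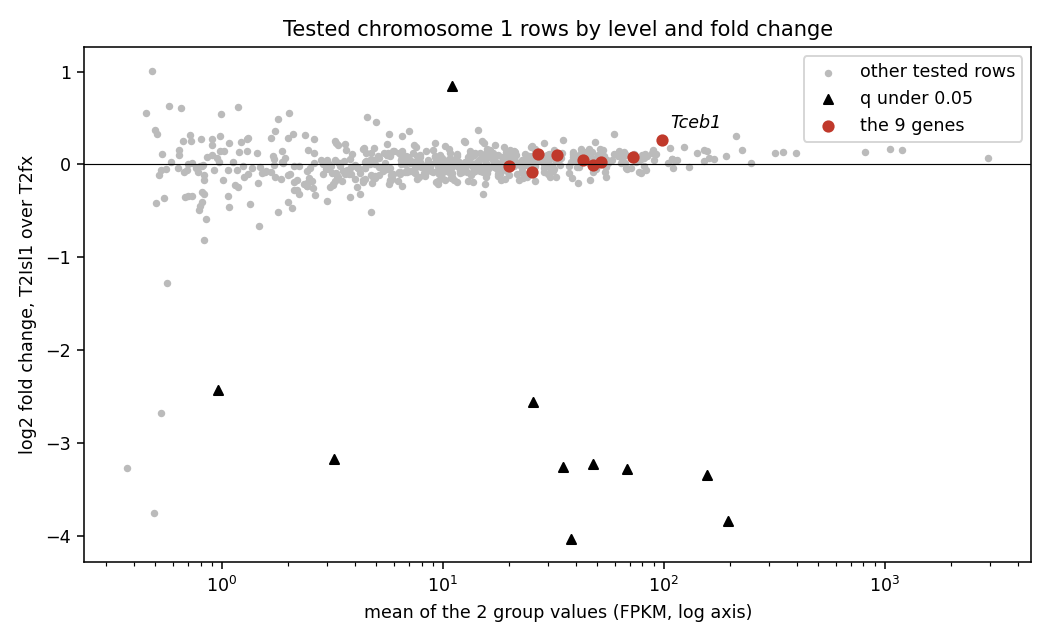
Each point is a tested row, with the mean of the 2 group values in FPKM on a log axis and the log2 fold change (T2Isl1 over T2fx) on the vertical axis. The 9 genes lie between -0.08 and 0.26 on the log2 scale and within the dense band of other rows, far from most rows with a q-value under 0.05.

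The size of difference that the authors' test passed at this level was examined in the 169 other tested rows whose mean level lay between those of Ube2f and Tceb1. Among them 5 had a q-value under 0.05, all of them crystallin genes that were at least 5.91-fold lower in T2Isl1. A further 3 had only an unadjusted p under 0.05. These were Pdcl3 (38.1 FPKM in T2Isl1 and 31.8 FPKM in T2fx), Mrpl30 (65.9 FPKM in T2Isl1 and 52.4 FPKM in T2fx) and Mob4 (52.9 FPKM in T2Isl1 and 44.7 FPKM in T2fx), with folds of 1.18 to 1.26 in the authors' deposited table. Tceb1, at 1.20-fold, falls in that range. Over all tested rows the smallest fold that passed at a q-value under 0.05 was 1.79. The median absolute log2 fold change was 0.08 for the 9 genes and 0.08 for the 169 rows. Of those rows 70.4% were above T2fx, compared with 6 of the 9 genes, so the share of the 9 above T2fx is near that of other genes of their level.

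Transcript length goes along with the direction of these small differences. The 626 tested rows with an annotated transcript (96.9%) were ordered by their longest transcript into 5 groups, and the median log2 fold change was 0.09, 0.04, 0.05, -0.01 and -0.08 from the shortest to the longest. Uchl5, Tceb1 and Cops5 fall in group 1, Cops8 and Psmd1 in group 2, Cul3, Ube2f and Cops7b in group 4 and Trip12 in group 5. The 3 genes below T2fx, Cul3, Ube2f and Trip12, had longest transcripts of 4709, 5654 and 9632 bases. The 6 genes above T2fx had a median of 2399 bases, and only Cops7b, at 5383 bases, was as long. Measured from the median of its own length group, the log2 fold change was within 0.02 of 0 for 7 of the 9 genes, 0.17 for Tceb1 and 0.11 for Cops7b. Whether the longest annotated transcript of a gene is the form expressed in these retinas was not examined. The part of length in these values was not tested.

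**Figure D3:**
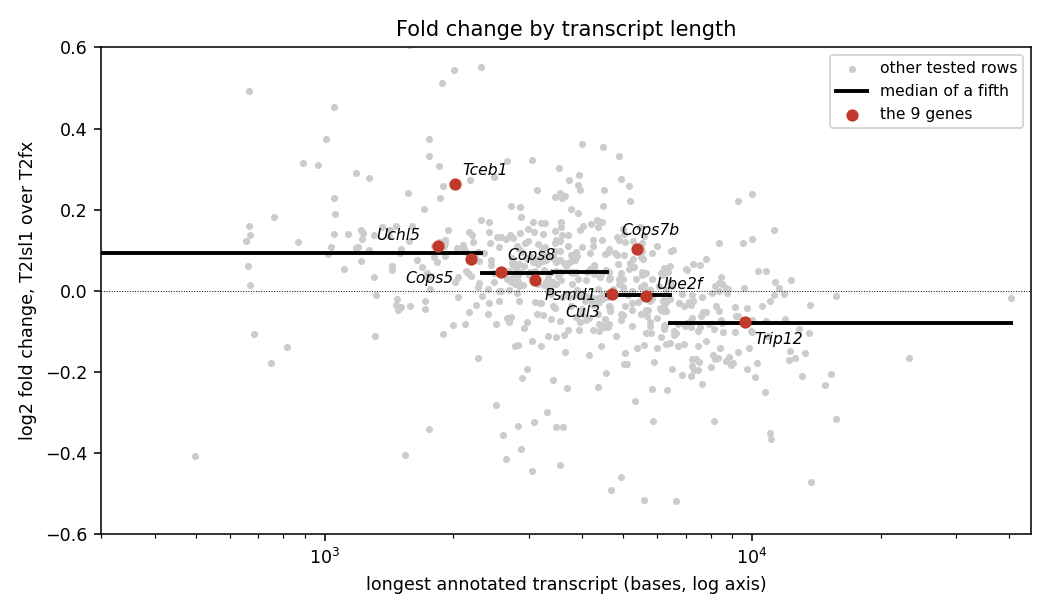
Each point is a tested row, with the longest annotated transcript in bases on a log axis and the log2 fold change (T2Isl1 over T2fx) on the vertical axis, cut at 0.6 on either side and at 300 bases, which leaves 21 rows outside. Black lines are the medians of 5 length groups, which run from 0.09 to -0.08. Most of the 9 genes lie on the line of their group, and Tceb1 and Cops7b lie above it.

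Of the 9 genes, 6 lie between 79 and 92 Mb of the chromosome, Cul3 first and Ube2f last, and 5 are on the plus and 4 on the minus strand. Several share their start region with a gene on the opposite strand. A protein-coding gene in the opposite direction starts within 1000 bases of 4 of them. Cspp1 faces Cops5, with the annotated gene ends overlapping by 181 bases, and had 5.24 FPKM in T2Isl1 and 4.93 FPKM in T2fx retinas (log2 fold change 0.09, the authors' deposited table). Trove2 starts 204 bases from Uchl5 and had 22.7 FPKM in T2Isl1 and 22.8 FPKM in T2fx retinas in the authors' deposited table. Neither partner passed the test.

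For 3 of the 9 genes the table gives exactly the same interval to a second row on the opposite strand. Trip12 shares its interval with Fbxo36, an F-box gene, which had 4.05 FPKM in T2Isl1 and 4.12 FPKM in T2fx retinas in the authors' deposited table. Cops7b shares its interval with Pde6d, which encodes a prenyl-binding protein and starts 275 bases away. Pde6d had 54.4 FPKM in T2Isl1 and 49.4 FPKM in T2fx retinas (log2 fold change 0.14, unadjusted p = 0.403, the authors' deposited table), more than Cops7b in each genotype. Psmd1 shares its interval with Htr2b, a serotonin receptor gene that lies within it and had 0.034 FPKM in T2Isl1 and 0.025 FPKM in T2fx retinas, too low to be tested. Whether counting used strand is not stated in the labels or the table, so reads from overlapping parts of such pairs cannot be told apart. Gm21972, an annotated protein-coding gene on the same strand, also overlaps Psmd1.

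The direction of the smallest differences depended on how the 2 groups were scaled. Tceb1, Cops7b and Uchl5 were above T2fx under each of the 5 scalings tried, while Ube2f was below it under each. For the other 5 genes at least 1 scaling turned the sign, and their deposited log2 fold changes were all within 0.08 of 0. Crystallin genes, which mark lens tissue, moved with the genotype: the 7 crystallin rows summed to 93.6 FPKM in T2Isl1 and 1038 FPKM in T2fx retinas, and all 7 were called lower, which is why 1 scaling left them out. That scaling moved every log2 fold change by -0.07. It was computed on chromosome 1 rows alone. Of mesenchymal markers 1 of 4 was called, Col3a1 (0.64 FPKM in T2Isl1 and 5.76 FPKM in T2fx), against 1.55% of all tested rows. The 4 summed to 15.2 FPKM in T2Isl1 and 23.9 FPKM in T2fx. Fn1 had the largest values among them, 10.6 FPKM in T2Isl1 and 11.9 FPKM in T2fx. Fn1, Col5a2 (3.88 and 5.56 FPKM) and Twist2 (0.070 and 0.68 FPKM) were lower in T2Isl1 without a call. Of 5 skeletal muscle markers Chrng was called and Chrnd was at 0 in both groups, and the 5 summed to 0.99 FPKM in T2Isl1 and 2.96 FPKM in T2fx. The 8 retinal markers on the chromosome were all tested, summed to 798 FPKM in T2Isl1 and 768 FPKM in T2fx, and none was called. The largest values in that sum were those of Hes6 (414 FPKM in T2Isl1 and 380 FPKM in T2fx) and Glul (248 and 245 FPKM). Hes6, Glul and Rxrg were higher in T2Isl1, while Tfap2b, Klf7, Fzd5, Lhx9 and Crb1 were lower. Lhx9 was low in both groups, with 0.91 FPKM in T2Isl1 and 1.25 FPKM in T2fx. The part of other tissues in the values of the 9 genes was not tested.

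**Figure D4:**
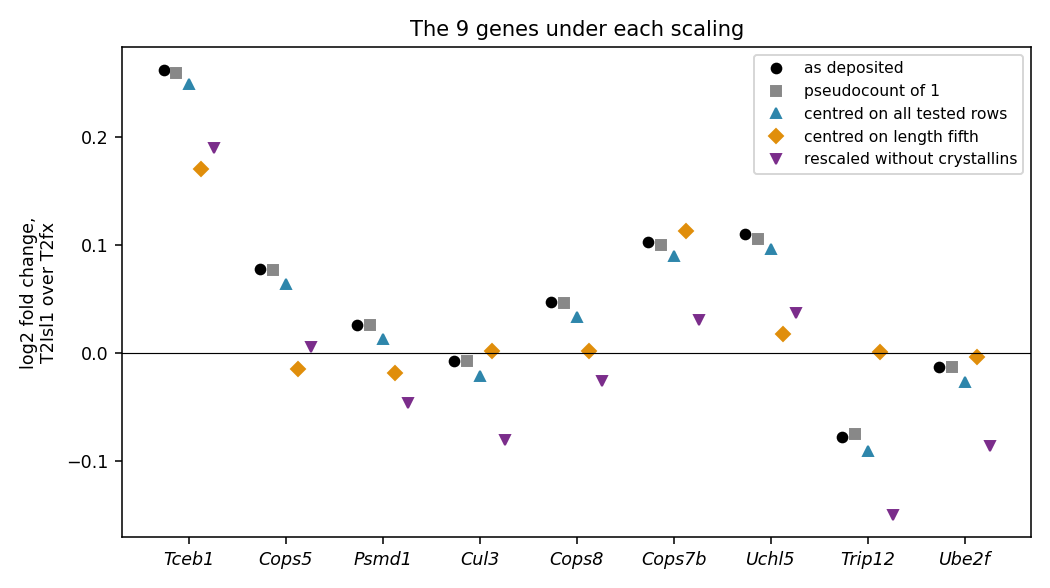
For each of the 9 genes, ordered by T2Isl1 level, symbols give the log2 fold change (T2Isl1 over T2fx) as deposited and under 4 other scalings. Tceb1 stays highest, from 0.17 to 0.26, while Cul3, Cops5, Psmd1, Cops8 and Trip12 have values on both sides of 0.

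The wider ubiquitin pathway was described through 12 lists fixed by symbol. Besides the 9 genes, the lists held 20 tested genes and 2 that were not tested, Klhl30 and Asb18. None of the 20 had a q-value under 0.05, and none had an unadjusted p under 0.05, the smallest being 0.139 for Rnf2, against 1.55% and 3.72% of all tested rows, shares at which 20 rows need hold no call. As deposited, 14 were above T2fx and 6 below, with log2 fold changes from -0.20 to 0.17 and a median of 0.03, against 0.01 for all tested rows, while 8 were above and 12 below after the rescaling without crystallins. Over the 9 and the 20 together, 69.0% were above T2fx as deposited, compared with 54.6% of all tested rows and 70.4% of the 169 rows at the level of the 9 genes. After that rescaling 12 of these 29 and 8 of the 20 were above T2fx, compared with 32.0% of all tested rows.

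Receptors that bring substrates to CUL3 had no called member, against 1.55% of all tested rows. All 3 tested genes had higher T2Isl1 values as deposited, where 54.6% of all tested rows did. After the rescaling without crystallins 2 of the 3 did, where 32.0% of all tested rows did. That rescaling put Ivns1abp at -0.035 on the log2 scale. Klhl12, a kelch-repeat receptor, had 9.54 FPKM in T2Isl1 and 8.59 FPKM in T2fx retinas (log2 fold change 0.15, the authors' deposited table). Ivns1abp, a BTB and kelch protein and the most abundant gene of the 12 lists, had 114 FPKM in T2Isl1 and 111 FPKM in T2fx retinas in the authors' deposited table. Its level was 2.41 times that of Cul3 in T2Isl1 and 2.33 times in T2fx. Of the CUL4 receptors, Rfwd2 (COP1), also a RING ligase, had 34.0 FPKM in T2Isl1 and 32.8 FPKM in T2fx, and Dcaf8 had 38.3 FPKM in T2Isl1 and 37.5 FPKM in T2fx in the authors' deposited table. The SOCS-box receptor gene Asb1, whose protein family binds elongin C, had 7.13 FPKM in T2Isl1 and 6.99 FPKM in T2fx in the authors' deposited table, a fold change far closer to 1 than that of Tceb1. The difference between the 2 fold changes was not tested.

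Ubiquitin-conjugating enzymes, deubiquitinases and other ligases on chromosome 1 were likewise without a call, against 1.55% of all tested rows. Their lists held 3 conjugating enzyme, 4 deubiquitinase, 2 HECT and 8 RING rows that were tested, too few to expect a call at that share. Ube2t, which acts in repair of DNA crosslinks, had 14.3 FPKM in T2Isl1 and 13.3 FPKM in T2fx, and Ube2w had 14.0 FPKM in T2Isl1 and 12.7 FPKM in T2fx retinas in the authors' deposited table. Usp40 had 7.65 FPKM in T2Isl1 and 7.04 FPKM in T2fx, and Usp37 had 10.5 FPKM in T2Isl1 and 10.7 FPKM in T2fx in the authors' deposited table. These pairs lay within the range of the 9 genes, which exceeds a log2 fold change of 0.11 only through Tceb1. Ube2w (0.14) and Usp40 (0.12) were above each of the other 8 genes. The HECT ligase gene Hecw2 had 1.96 FPKM in T2Isl1 and 1.77 FPKM in T2fx retinas in the authors' deposited table (log2 fold change 0.15), above T2fx where the other HECT gene, Trip12, was below, and neither passed. Among 8 tested RING ligase genes 5 were above and 3 below T2fx as deposited, where 54.6% of all tested rows were above. After the rescaling without crystallins, which left 32.0% of all tested rows above T2fx, only Rnf2 (0.094) and Rnf25 (0.031) of the 8 stayed above. The extremes of the 8 as deposited were Rnf2 and March4. Rnf2, a catalytic subunit of Polycomb repressive complex 1, had 48.3 FPKM in T2Isl1 and 43.0 FPKM in T2fx. March4, a membrane-bound ligase, had 2.25 FPKM in T2Isl1 and 2.59 FPKM in T2fx in the authors' deposited table (log2 fold change -0.20, unadjusted p = 0.248).

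**Figure D5:**
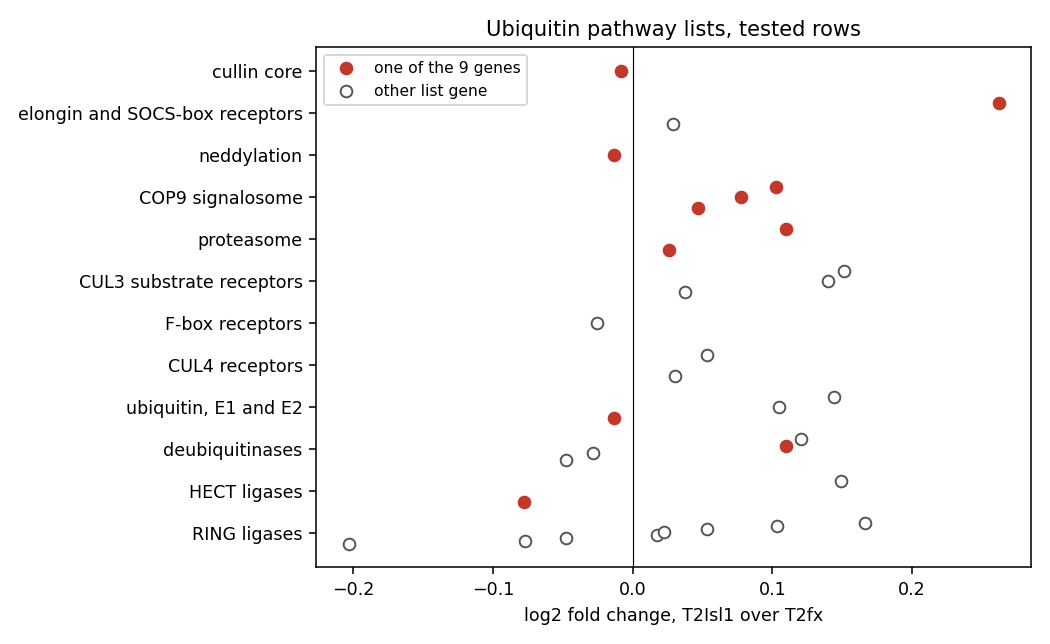
Each row is a list of ubiquitin pathway genes and each point a tested gene, placed by its log2 fold change (T2Isl1 over T2fx), with filled points for the 9 genes, open points for other list genes and a vertical offset only to separate points. A gene on 2 lists appears in both. Points lie between -0.20 and 0.26, with Tceb1 the farthest to the right.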

How the data were processed

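Tools listed in the submitters' processing notes are Cufflinks 2.1.1, TopHat2 2.1.1 and CASAVA, and the build is mm10. Their order and the annotation used are not stated there. The deposited table is laid out like Cuffdiff output for genes, and its single value per group was read as the authors' FPKM, since Cufflinks gives that unit. Per the file headers it also gives the authors' log2 fold change without a pseudocount, a test score (not used), a p-value and a q-value. Fold changes matched the group values to within 1.06e-05. No test over samples was possible, so genes were called by the authors' q-value under 0.05. Library depth is unknown, and no error could be given for a value. The labels do not say whether pools came from separate litters, so p-values may measure technical spread only.

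Only chromosome 1 rows were analysed (1140 complete, 1 incomplete left out, 646 tested). Starts were raised by 1. Old symbols were matched through RefSeq synonyms (Tceb1 to Eloc). Lengths, strands and neighbours came from GENCODE M21, which uses the same assembly. The search for near copies used BLAST 2.17.0, and other steps used Python 3.11.15 with pandas 2.3.3. Adjustment and length centring were checked on simulated data. Alternatives covered thresholds, floors of 1 and 5 FPKM, a 1.5-fold minimum, a pseudocount of 1 and scalings. The 9 genes, the lists, the motifs and the tests were chosen with earlier results of these data known. Named genes were the 9 and, per list, the called genes, the largest absolute fold change and the highest level. The 3 genes closest to Cul3 and marker genes of the retina and of other tissues were also named. Mob4, Pdcl3, Mrpl30, Myeov2, Rnf25, the crystallins, the facing and overlapping genes, Gm7099, Gm21972, Klhl30 and Asb18 were named after their values were seen.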

Additional observations from a re-analysis of the deposited data

How the results depend on the processing

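The count of called genes among the 9 was 0 higher and 0 lower at a q-value under 0.05, and also at 0.01, with floors of 1 or 5 FPKM, with a 1.5-fold minimum, without joined or repeated names, and with Benjamini-Hochberg adjustment over the 646 tested rows in hand. At an unadjusted p under 0.05 it was 1 higher (Tceb1) and 0 lower, against 3.72% of tested rows in either direction and 1.08% higher. The 20 other pathway genes had 0 calls under each of these settings. Of all tested rows 1.55% had a q-value under 0.05, a share at which 9 or 20 rows need hold no call. With 0 calls to begin with, the stricter settings could not give fewer. The median log2 fold change of the 9 genes was 0.05 and became -0.026 when the groups were rescaled without crystallin genes. Leaving out any 1 of the 9 genes kept it above 0. That rescaling gave -0.047 for Psmd1 and -0.026 for Cops8. Centred on the median of genes of like transcript length, Cops5 had -0.015, Psmd1 -0.019, Cul3 0.0013 and Trip12 0.00072. For each of these sign changes the constant subtracted exceeded the deposited difference. A pseudocount of 1 and centring on all tested rows turned no sign. The depth of the libraries is unknown, and the table cannot show how the 3 libraries of a group varied. Leaving out each library in turn was not run. No paired analysis was possible because each group has a single combined column, with no replicate number.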
